A study of Mus musculus with 2 samples.

Results

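Lef1, Tcf7, Axin2, Nkd1 and Sp5 are genes at the nuclear end of the canonical WNT pathway, chosen by name from the gene rows that both count tables hold. These 5 genes were followed among the 15944 genes listed in both tables. The study measured single-cell RNA of the mandibular prominence, the paired facial swelling from which the mandible and the lower lip grow. Its 2 samples came from wild-type embryos of the outbred mouse strain CD1. The younger was taken at embryonic day 11.5 (E11.5), the older at embryonic day 13.5 (E13.5), and each is 1 droplet library (10x Genomics Chromium). The tissue was digested in the cold with 3 mg/ml of a bacterial protease at E11.5 and with 5 mg/ml at E13.5. How many embryos were pooled, and from how many litters, was not stated in the labels.

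WNT proteins bind Frizzled and LRP receptors, which stops a cytoplasmic complex built on Axin and APC from marking β-catenin for destruction. β-catenin then enters the nucleus and binds proteins of the LEF/TCF family, which sit on DNA and change from repressing to activating their targets. In the developing face this pathway acts in both the surface epithelium and the neural-crest-derived mesenchyme, and it takes part in the outgrowth of the prominences and in the start of teeth, hair and bone. Lef1 and Tcf7 encode members of the LEF/TCF family. Axin2 encodes a relative of Axin1 and is a widely used readout of the pathway, because it is both a target and a feedback inhibitor. Nkd1 encodes a Dishevelled-binding inhibitor that is also induced by the pathway in many tissues. Sp5 encodes a zinc-finger transcription factor that is a direct target of β-catenin in embryos and embryonic stem cells.

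The E11.5 library held 7099 cells with a median of 6231 UMIs (unique molecular identifiers, each standing for 1 captured RNA molecule). The E13.5 library held 6318 cells with a median of 9280 UMIs. Cells were grouped into classes by the authors' clusters and lineage names. Markers decided instead for E11.5 cluster 14 (skeletal muscle; no name from the authors), E11.5 cluster 17 (glia; named with the mesenchyme) and E13.5 cluster 20 (macrophages; named mast cells). For these clusters the leading marker list was set by that placement. With them included, the marker list of a cluster's own class led the other lists in 39 of 40 clusters. The exception was E13.5 cluster 8, also without a name. It had a median of 935.5 UMIs a cell and 24.1% haemoglobin UMIs, and it was kept out of every class. Levels are CPM, that is counts per 1000000 of the summed UMIs of a cluster or class. A single library per stage allows no test between the stages, and age, library and protease dose cannot be told apart. Every interval is an exact 95% interval that covers counting error only. A gene was called higher or lower at E13.5 where its CPM ratio was at least 1.5-fold, the interval excluded 1 and the gene had at least 20 UMIs over both libraries.

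All 5 genes are protein-coding and autosomal (GRCm38, GENCODE annotation). Lef1 spans chr3:131110471-131224356 on the plus strand, Axin2 chr11:108920349-108950783 on the plus strand and Tcf7 chr11:52252371-52283014 on the minus strand. Nkd1 spans chr8:88521354-88594884 and Sp5 chr2:70474923-70477729, both on the plus strand. Sp5 overlaps no other annotated gene. Lef1 and Tcf7 overlap 2 annotated genes each, and Axin2 and Nkd1 overlap 1 each, so a few of their UMIs could belong to a neighbour, depending on how overlaps were counted. LEF/TCF proteins bind DNA with the core letters CTTTGA or CTTTGT. These letters were searched on both strands in the 250 bases before each RefSeq start site of the members (GRCm38.p6), which gave 9 windows. The windows of Sp5 and of an internal Lef1 start held the only matches. They are printed from 5′ to 3′ on the gene's strand with the matches in capitals, beside the Axin2 window as one with no match. TCAAAG and ACAAAG are the same cores read on the other strand.

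Sp5, chr2:70474673-70474922, plus strand: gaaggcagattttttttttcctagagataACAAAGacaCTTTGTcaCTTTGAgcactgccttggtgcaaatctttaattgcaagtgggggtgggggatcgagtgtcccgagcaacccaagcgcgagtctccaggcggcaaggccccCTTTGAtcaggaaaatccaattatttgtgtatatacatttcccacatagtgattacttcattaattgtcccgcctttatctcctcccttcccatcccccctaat

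Lef1, internal start, chr3:131156044-131156293, plus strand: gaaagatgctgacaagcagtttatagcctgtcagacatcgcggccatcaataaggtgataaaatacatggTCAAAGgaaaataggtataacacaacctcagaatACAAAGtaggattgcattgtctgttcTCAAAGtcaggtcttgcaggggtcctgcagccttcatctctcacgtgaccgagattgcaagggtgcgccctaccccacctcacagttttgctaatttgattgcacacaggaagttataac

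Axin2, chr11:108920099-108920348, plus strand: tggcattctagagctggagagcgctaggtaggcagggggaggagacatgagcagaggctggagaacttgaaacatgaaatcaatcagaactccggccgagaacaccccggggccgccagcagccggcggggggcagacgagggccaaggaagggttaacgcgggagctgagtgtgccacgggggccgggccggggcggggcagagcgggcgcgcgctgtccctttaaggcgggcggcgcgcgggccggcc

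The Sp5 window held 4 matches, at 221, 212, 204 and 104 bases before the start, and the first 3 lie within a short stretch. Among 32851 windows of the same length before RefSeq starts, 0.0944% held at least 4 matches. The internal Lef1 window held 3 matches, at 180, 146 and 120 bases before its start, and 0.776% of all windows held at least 3. At least 1 match was present in 27.6% of all windows. The other 3 Lef1 windows, both Tcf7 windows and the Nkd1 window held none. The Nkd1 window, chr8:88527383-88527632, lies inside the gene span given above. The bases before the annotated 5′ end of Nkd1 were therefore not searched. These matches describe letters in short windows. Binding was not measured.

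Erythroid cells were taken as cells that should lack these transcripts, so their UMIs stand for what free RNA leaves in a droplet. For Lef1 this differed widely between the libraries, with 98 UMIs in 456 erythroid cells at E11.5 (0.215 a cell) and 3 in 207 at E13.5 (0.0145 a cell). Axin2 stood at 0.0746 and 0.0193 UMIs per erythroid cell and Nkd1 at 0.0987 and 0.0531. Sp5 stood at 0.0132 and 0.00483, and Tcf7 at 0.00439 and 0. The mesenchyme, with 0.918 and 0.466 Lef1 UMIs per cell, lay above the erythroid cells at both stages, as it did for Axin2 (0.251 and 0.182), Nkd1 (0.407 and 0.793) and Tcf7 (0.0285 and 0.0464). Sp5 in the E11.5 mesenchyme, at 0.00848 UMIs per cell, was below the erythroid value and is not read as expression, whereas at E13.5 it was at 0.301. The stage ratios of Lef1, Axin2, Nkd1, Tcf7 and Sp5 below were also recomputed with the erythroid UMIs per cell taken off every cell. This assumes that all droplets of a library hold the same free RNA, but the E11.5 erythroid clusters were not alike. Clusters 11 and 12 held 0.156 and 0.286 Lef1 UMIs per cell, 0.048 and 0.107 for Axin2 and 0.068 and 0.136 for Nkd1. The pooled value was used, and the recomputed ratios have no interval. The stage ratios of all other genes below were not recomputed in this way, so free RNA is left in them.

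Between the stages the mesenchyme, the largest class, showed 3 different patterns. Lef1 and Axin2 were lower at E13.5, Sp5 was higher, and Nkd1 and Tcf7 passed the rule in neither direction. Thus 1 of the 5 genes was called higher, where 27.0% of the 14139 measured genes were, and 2 were called lower, where 12.2% of all measured genes were. The class held 5899 cells at E11.5 and 3905 at E13.5. The median log2 ratio of all measured genes in it was 0.14.

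**Figure D1:**
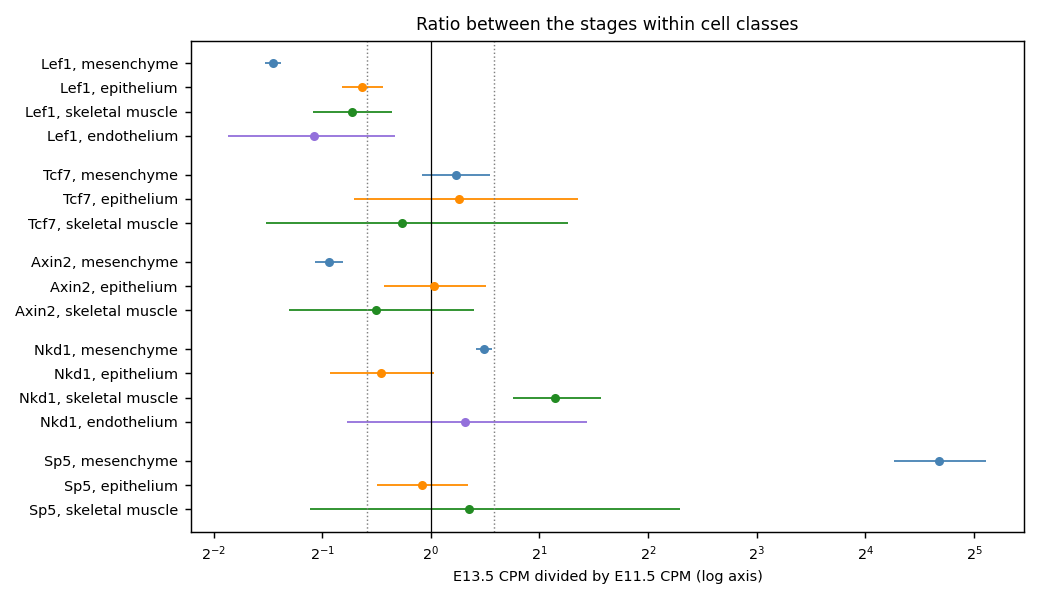
E13.5 CPM divided by E11.5 CPM on a log axis for each gene in 4 cell classes, as points with exact 95% intervals (counting error only); dotted lines mark 1.5-fold in either direction, and genes with fewer than 20 UMIs over both libraries are left out. Lef1 lies on the lower side in all 4 classes (with free RNA left in), Axin2 only in the mesenchyme lies wholly below the lower dotted line, and mesenchymal Sp5 lies far to the right at 25.6.

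Among the nuclear effectors, Lef1 had 145 CPM (141 to 149; 5413 UMIs) in the younger mesenchyme and 53.0 CPM (50.6 to 55.5; 1818 UMIs) in the older. Its level was 2.74-fold lower at E13.5 (2.60 to 2.89). With the erythroid UMIs taken off, the levels were 111.1 and 51.36 CPM and the ratio 0.462, still past the limit. Tcf7 was scarce at both stages, at 4.50 CPM from 168 UMIs and at 5.28 CPM from 181 UMIs, a ratio of 1.17 (0.945 to 1.45). The Tcf7 ratio depended on 1 cluster. Without the E13.5 osteogenic progenitors (cluster 5) it was 0.708, on the other side of 1.

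Of the feedback inhibitors, Axin2 was at 39.7 CPM (1480 UMIs) at E11.5 and at 20.7 CPM (710 UMIs) at E13.5, which is 1.92-fold lower (1.75 to 2.10). With the erythroid UMIs taken off its ratio was 0.6635, at the very edge of the 1.5-fold limit. Nkd1 was at 64.3 CPM (2398 UMIs) and 90.2 CPM (3095 UMIs), a ratio of 1.40 (1.33 to 1.48) that lies above 1 and under the 1.5-fold limit. So the intervals of these 2 inhibitors' ratios lay on opposite sides of 1 in the same cells. The Nkd1 ratio was 1.06 without E13.5 cluster 2. It was past 1.5 with the erythroid UMIs taken off (1.729), and without E11.5 cluster 1 (1.71) or cluster 8 (1.504), or without E13.5 cluster 4 (1.528), 5 (1.523) or 6 (1.526).

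Sp5 was nearly undetected in the E11.5 mesenchyme, at 1.34 CPM (0.995 to 1.77) from 50 UMIs. At E13.5 it stood at 34.3 CPM from 1176 UMIs, a ratio of 25.6 (19.3 to 34.7). The denominator is not above the free-RNA level, so the ratio does not measure a change from an expressed level. Cells called S or G2/M by the authors made up 68.3% of the E11.5 mesenchyme and 43.0% of the E13.5 mesenchyme. In cells called G1 alone the Sp5 ratio was 12.95. Leaving out any 1 of the 22 mesenchyme clusters left it between 18.57 and 35.02, and the Lef1 and Axin2 calls also held in all 22 cases.

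**Figure D2:**
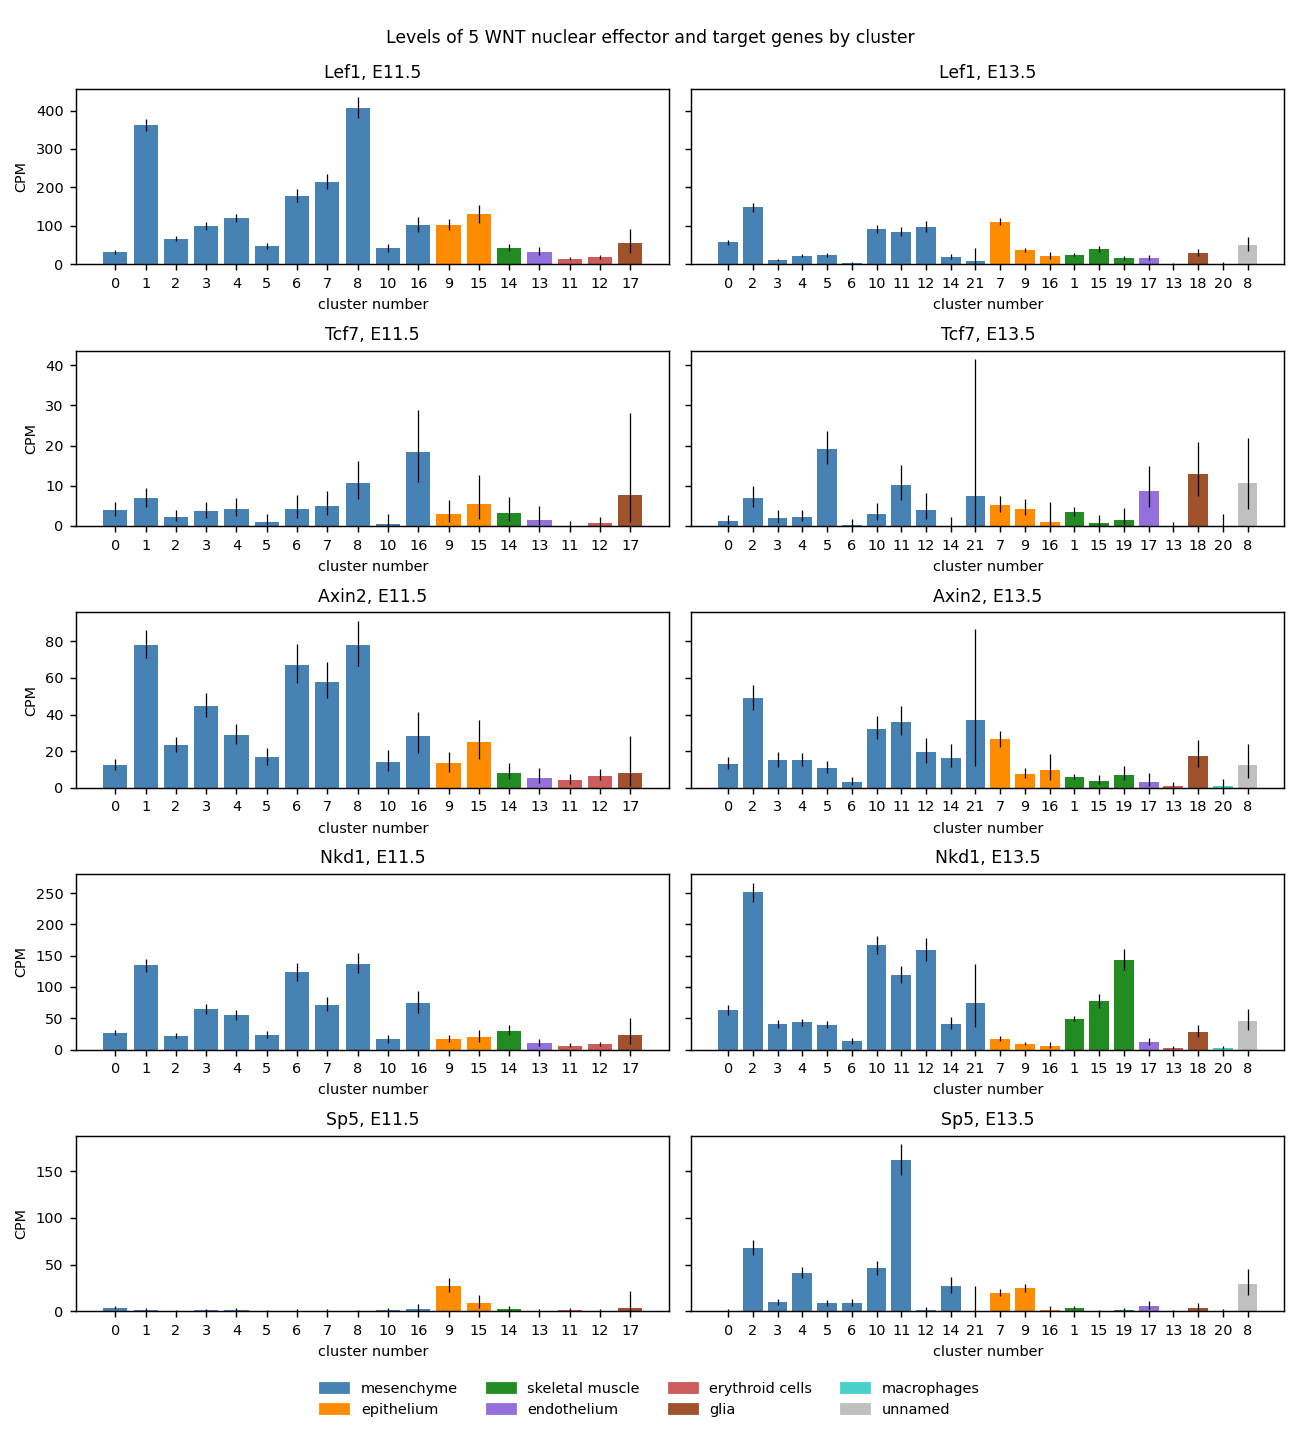
CPM of each gene in every cluster (bars; error bars are exact Poisson 95% intervals, counting error only), with E11.5 on the left and E13.5 on the right, coloured by class; each row of panels has its own scale, and free RNA is not taken off. Lef1 peaks in E11.5 clusters 8 and 1 (406 and 362 CPM), and Sp5 is high in E13.5 cluster 11 (162 CPM) but under 4 CPM in every E11.5 mesenchyme cluster.

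Among the 11 mesenchyme clusters of E11.5, Lef1 was highest in cluster 8 (406 CPM) and cluster 1 (362 CPM), both led by Hpgd, Cxcl14 and Dkk1, then in cluster 7 (214 CPM, led by Tbx18 and Osr2) and cluster 6 (178 CPM, led by Igf1 and Rspo3). Each of these 4 levels was apart from its neighbour in the order beyond counting error. Clusters 4, 16 and 3, at 120, 102 and 98.8 CPM, formed a run with both epithelial clusters (15 at 129 CPM and 9 at 101 CPM) in which no neighbours were apart. Cluster 2 followed at 65.6 CPM, cluster 5 at 47.6, cluster 10 (led by the cartilage genes Sox9 and Col2a1) at 40.9 and cluster 0 (led by Cited1 and Plagl1) at 30.7 CPM. Cluster 0, at 0.185 UMIs per cell, did not exceed the pooled erythroid cells (0.215). Clusters 5 and 10, at 0.239 and 0.279, were little above them. Clusters 1 and 8 held 18.6% of the mesenchymal cells and 50.4% of the Lef1 UMIs. They differed in phase, with 96.3% of cluster 1 and 35.4% of cluster 8 called S or G2/M. A Lef1 UMI was found in 85.8% of the cells of cluster 1, in 80.8% of cluster 8 and in 15.5% of cluster 0.

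At E13.5 the median of Lef1 over the mesenchyme clusters was 23.6 CPM, against 102 CPM at E11.5. Cluster 2 (led by Stmn2, Pax1 and Vgll3) was highest at 147 CPM. Next came epithelial cluster 7 at 110 CPM and mesenchymal clusters 12, 10 and 11 at 97.4, 90.5 and 83.5 CPM, with no neighbours apart among these 4. Cluster 0 was at 56.6 CPM, and every other mesenchyme cluster was below 24 CPM, down to 2.20 CPM in cluster 6 (led by Aldh1a3 and Meox1). Neighbouring pairs apart beyond counting error were 2 of 21 in the E13.5 order of all clusters and 7 of 16 at E11.5. These counts cannot be compared, since the E13.5 order spread 3048 UMIs over 22 clusters and the E11.5 order 5963 over 17. Over the mesenchyme clusters the highest Lef1 level was 67.0 times the lowest at E13.5 and 13.2 times at E11.5, with free RNA left in. The lowest E11.5 cluster did not exceed the pooled erythroid cells. The lowest E13.5 level, in cluster 6, rests on 7 UMIs (0.885 to 4.54 CPM). The spreads of the stages are therefore not compared. Clusters 2 and 10 held 19.8% of the cells and 49.9% of the mesenchymal Lef1 UMIs. A Lef1 UMI was found in 51.6% of the cells of cluster 2 and in 1.80% of cluster 6.

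Tcf7 counts were too few to set neighbours in the order apart at either stage. Clusters further apart in the order did separate. The interval of E13.5 cluster 5 (15.3 to 23.7 CPM) lay wholly above that of cluster 11 (6.52 to 15.1 CPM). That of E11.5 cluster 16 (10.8 to 28.9 CPM) lay above that of cluster 1 (4.82 to 9.53 CPM). The highest E11.5 level was in cluster 16 (18.3 CPM, led by Penk and Igfbp7), followed by cluster 8 (10.7 CPM) and cluster 1 (6.89 CPM). The highest E13.5 level was in the osteogenic progenitors of cluster 5, at 19.2 CPM (15.3 to 23.7) from 86 UMIs, with 48 of 422 cells positive. This cluster, led by the bone genes Ifitm5 and Sp7, and cluster 2 held 63.5% of the mesenchymal Tcf7 UMIs in 23.1% of the cells. Lef1 in cluster 5 was at 23.6 CPM, the median of the E13.5 mesenchyme clusters, so the 2 LEF/TCF genes had their highest E13.5 levels in different clusters. Outside the mesenchyme, glial cluster 18 was at 12.98 CPM and the endothelium at 8.70 CPM, the latter from 13 UMIs.

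Axin2 followed an order much like that of Lef1 at E11.5. Clusters 8 and 1 were at 78.2 and 78.0 CPM, cluster 6 at 67.3 and cluster 7 at 58.0 CPM, and no neighbours among these 4 were apart. Cluster 3 was at 44.9 CPM, clusters 4, 16 and 2 between 28.9 and 23.2 CPM, and clusters 5, 10 and 0 between 16.5 and 12.6 CPM. Clusters 5, 10 and 0 held 0.0831, 0.0967 and 0.0759 Axin2 UMIs per cell, little above the 0.0746 of erythroid cells. At E13.5 no neighbouring pair was apart. Cluster 2 was highest at 48.8 CPM (42.3 to 56.0). Cluster 21 came next at 37.3 CPM (12.1 to 87.0), from only 5 UMIs in 72 shallow cells (median 1833 UMIs). Clusters 11 and 10 followed at 36.0 CPM (28.8 to 44.6) and 32.3 CPM (26.4 to 39.1). In the order cluster 2 was set against cluster 21 alone, and its interval lies wholly above that of cluster 10. Cluster 6 was lowest at 3.14 CPM.

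Nkd1 had its highest E11.5 levels in the 3 clusters that led for Axin2, 8 (137 CPM), 1 (134 CPM) and 6 (124 CPM), with no neighbours apart. The other E11.5 mesenchyme clusters ran from 74.2 CPM (cluster 16) down to 16.4 CPM (cluster 10). Clusters 10 and 5 held 0.1115 and 0.1189 Nkd1 UMIs per cell, little above the 0.0987 of erythroid cells. At E13.5 cluster 2 stood alone at 251 CPM. Clusters 10 and 12 followed at 167 and 159 CPM, cluster 11 at 119 CPM and cluster 0 at 62.6 CPM. The remaining clusters of 100 or more cells were near 40 CPM (14, 3, 5 and 4, at 41.6, 40.7, 39.2 and 43.4 CPM) except cluster 6 at 13.2 CPM. The median over the clusters was 64.7 CPM in the younger library and 62.6 CPM in the older, while the highest cluster was at 137 and 251 CPM. Clusters 2 and 10 held 51.2% of the E13.5 mesenchymal Nkd1 UMIs, and 75.5% and 70.9% of their cells had at least 1.

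Sp5 had its highest E11.5 level not in mesenchyme but in epithelial cluster 9, at 27.5 CPM (20.7 to 35.7) from 56 UMIs, with 11.6% of its 275 cells positive. That cluster is led by Fgf8, a gene of the oral epithelium. Epithelial cluster 15 (led by Gjb2 and Gjb6) was at 8.62 CPM, and the highest mesenchymal level was 3.37 CPM in cluster 0. At E13.5 mesenchymal cluster 11 (led by Tfap2b, Fst and Meox2) was at 162 CPM (146 to 179) from 381 UMIs, and 64.2% of its 279 cells were positive. Clusters 2, 10 and 4 followed at 68.1, 45.9 and 41.2 CPM, and cluster 14 (led by Dpt and Cd34) was at 27.3 CPM. Clusters 3, 6 and 5 lay between 9.59 and 8.69 CPM. Clusters 12 and 0 were at 1.15 and 0.895 CPM, close to the E11.5 mesenchyme, and no UMI was found in cluster 21, whose floor of 3 counts is 22.4 CPM. Sp5 thus differed sharply between cluster 11 and cluster 12, whose Lef1 levels (83.5 and 97.4 CPM) have overlapping intervals. Clusters 11 and 2 held 56.5% of the mesenchymal Sp5 UMIs in 19.5% of the cells.

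After each cell was thinned to 2000 UMIs, so that depth was equal, 21.6% of E11.5 and 9.72% of E13.5 mesenchymal cells had a Lef1 UMI (42.2% and 26.0% unthinned). For Axin2 the thinned shares were 7.36% and 4.08% (19.5% and 14.7% unthinned). Both genes were thus found in smaller shares of cells at E13.5 with and without thinning. Nkd1 was found in 11.4% and 15.3% of thinned cells (27.4% and 39.3% unthinned) and Tcf7 in 0.882% and 0.680% (2.70% and 3.51% unthinned). The thinned Tcf7 share went against its CPM, so no order is read from it. Sp5 was found in 0.305% of thinned E11.5 cells (18 of 5899) and 5.12% of thinned E13.5 cells (196 of 3826), or 0.797% and 13.8% unthinned. The median mesenchymal cell had 5895 UMIs in the younger library and 8303 in the older, and thinning left out no E11.5 cell and kept 3826 of 3905 at E13.5. In erythroid cells, with median depths of 13137 and 18517 UMIs, 17.8% at E11.5 and 1.45% at E13.5 had a Lef1 UMI without thinning. Axin2 was found in 6.36% and 1.93% of them and Nkd1 in 8.77% and 4.35%. For Sp5 these unthinned erythroid shares were 1.32%, above the mesenchymal 0.797%, and 0.483%, below the mesenchymal 13.8%.

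Across the mesenchyme clusters Lef1, Axin2 and Nkd1 varied together, most closely at E11.5. The likeness of 2 genes was taken as the lower of the 2 within-stage Pearson correlations of log2(CPM + 5), over 11 clusters at each stage. The clusters of a stage share 1 library, so these values are descriptions. Free RNA was not taken off, and the lowest E11.5 clusters lie near its level for these genes. Lef1 and Nkd1 correlated at 0.92 (E11.5) and 0.89 (E13.5). Among 10379 ranked genes Nkd1 was the gene most like Lef1. Nkd1 and Axin2 correlated at 0.93 and 0.87. Lef1 and Axin2 correlated at 0.96 at E11.5 but at 0.63 at E13.5, where the shallow cluster 21 lies above the other points. After Nkd1, Mrpl23 (0.89 and 0.87) and Notum (0.86 and 0.89) were most like Lef1. The genes most like Axin2 were Cped1 (0.93 and 0.89), Tmem132c (0.90 and 0.88) and Nkd1, and those most like Nkd1 were Lef1, Axin2 and Twist1 (0.91 and 0.85).

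**Figure D3:**
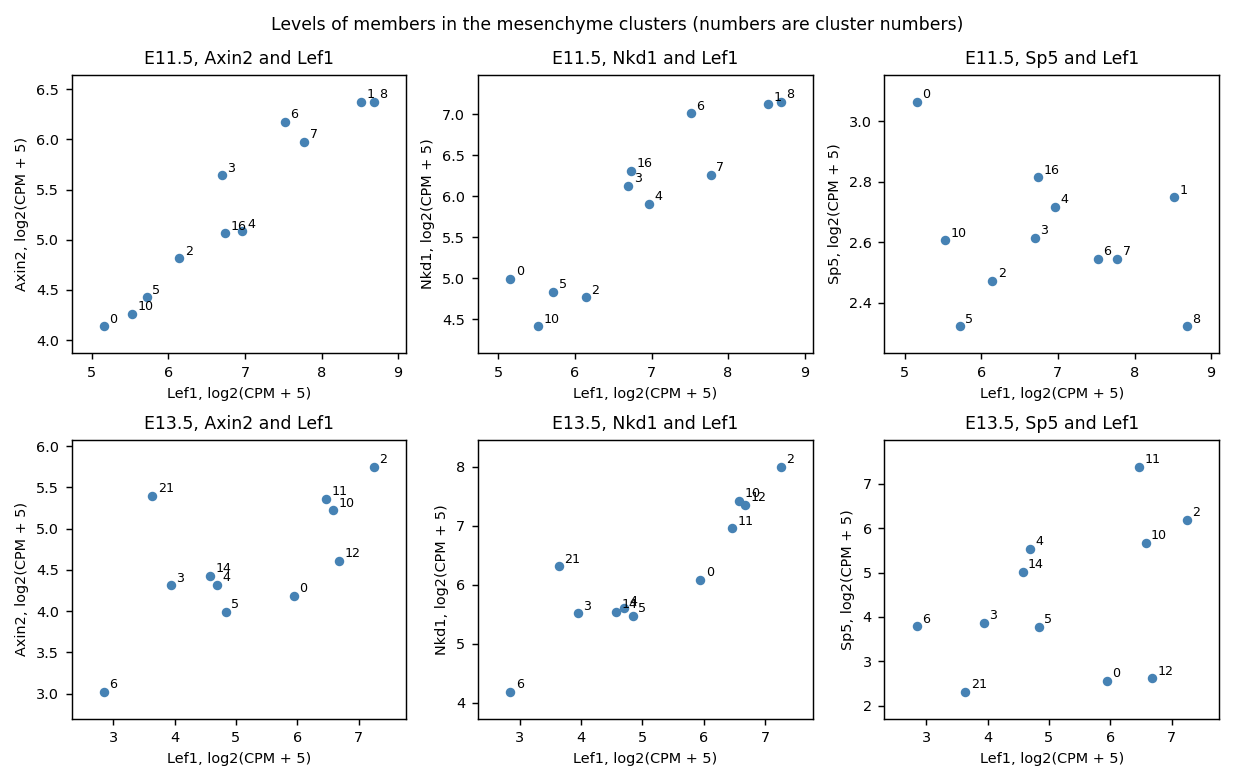
Levels of Axin2, Nkd1 and Sp5 against Lef1 in the 11 mesenchyme clusters of each stage, as log2(CPM + 5); each point is a cluster with its number. Axin2 and Nkd1 climb with Lef1 at E11.5 (0.96 and 0.92), whereas E13.5 clusters 11 and 12 have like Lef1 levels and lie at the top and near the bottom of the Sp5 axis.

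Sp5 correlated at 0.41 with Lef1 and at 0.32 with Nkd1 over the E13.5 clusters. Its E11.5 correlations rest on 50 UMIs at a free-RNA level and are not read, so no partner genes are named for it in the mesenchyme. The genes most like Tcf7 were Chst15 (0.84 and 0.85), Tgfb1 (0.75 and 0.69) and Slc7a5 (0.75 and 0.64). All Tcf7 correlations rest on 168 and 181 UMIs, too few to set neighbouring clusters apart, so this ranking is loose. Lef1 and Tcf7, the family pair, correlated at 0.57 and 0.29. Tcf7 correlated at 0.70 and 0.35 with Nkd1 and at 0.49 and 0.41 with Axin2. Over the clusters of all classes (17 and 22 with at least 50 cells, 11104 ranked genes) the leading partners were other genes. They were Ube2e2 for Lef1 (0.82 and 0.74), Ntf3 for Axin2 (0.86 and 0.84), Phldb2 for Nkd1 (0.79 and 0.85), Rgs4 for Tcf7 (0.78 and 0.60) and Lrrc16a for Sp5 (0.63 and 0.59). The E11.5 values for Tcf7 and Sp5 rest on only 189 and 124 UMIs, so their partners are loosely ranked too.

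Within single mesenchymal cells some of the same pairs were also found together more often than the cluster make-up gives. The comparison used thinned cells and weighted the cells without the first gene to the clusters of the cells with it. The weighted share has no interval, so only the counting error of the cells with the first gene is covered. At E11.5, 20.4% of Lef1-positive cells had Nkd1 (260 of 1274; 18.2 to 22.7), against 14.4% of weighted Lef1-negative cells. For Axin2 in Lef1-positive cells the shares were 13.5% (11.7 to 15.5) and 9.53%. Nkd1 in Axin2-positive cells was at 18.2% (14.7 to 22.2) against 15.2%, which lies within the interval. Thus at E11.5 the 2 Lef1 pairs stood above the weighted share by more than the counting error of the Lef1-positive cells. The pair of inhibitors did not stand above it in this way.

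At E13.5, 26.9% of Lef1-positive cells had Nkd1 (100 of 372; 22.4 to 31.7) against 21.9%, and 30.1% of Axin2-positive cells had Nkd1 (47 of 156; 23.1 to 38.0) against 22.8%. The lower bounds of these intervals lie close to the weighted shares, which have no interval, so neither excess is settled. Sp5 was found in 15.4% of Axin2-positive cells (24 of 156; 10.1 to 22.0) against 7.13%, and in 7.26% of Lef1-positive cells (27 of 372; 4.84 to 10.4) against 7.22%. Sp5 therefore stood above its weighted share beside Axin2 and at its weighted share beside Lef1. For Axin2 in Lef1-positive cells (8.06%; 5.51 to 11.3) the weighted 5.87% was within the interval, as was 6.75% for Sp5 in Nkd1-positive cells (8.36%; 6.25 to 10.9). Most thinned cells (66.9% at E11.5, 71.7% at E13.5) had none of the 5 genes. Cells with 4 of them numbered 2 and 3, and no cell had all 5.

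**Figure D4:**
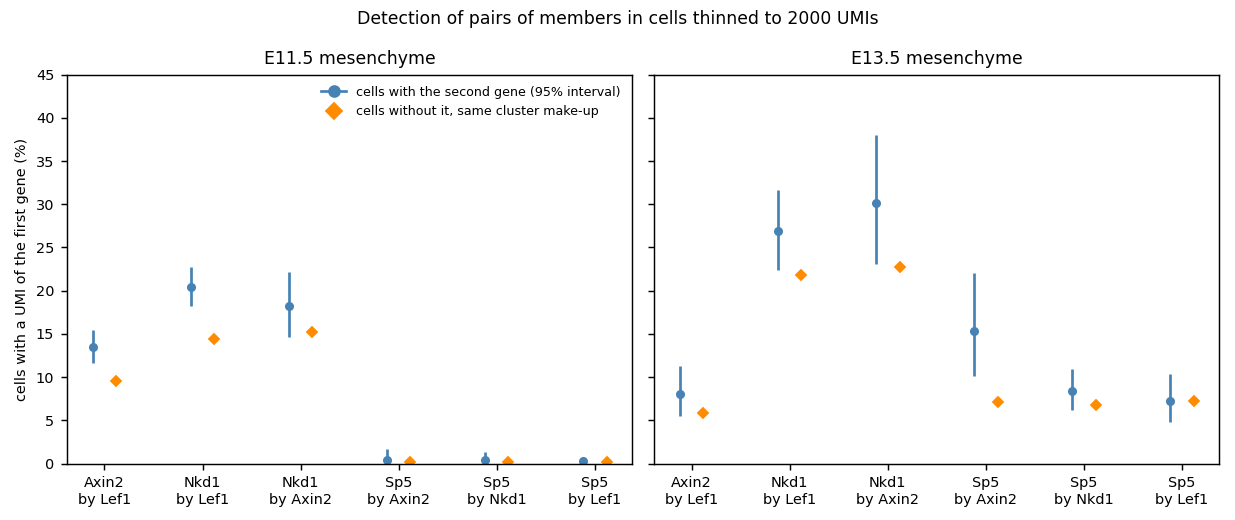
Share of thinned mesenchymal cells with a UMI of the first-named gene (vertical axis, percent) among cells with the second-named gene (circles, 95% Clopper-Pearson interval) and among cells without it weighted to the same cluster make-up (diamonds), for 6 pairs at each stage. At E13.5 the circle for Sp5 by Axin2 (15.4%) has an interval above its diamond (7.13%), while circle and diamond coincide for Sp5 by Lef1.

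Of the 5 genes, Sp5 was the one whose level differed most between the authors' cell cycle phases in the E13.5 mesenchyme. It was at 25.5 CPM (23.2 to 28.0) in cells called G1, 33.9 CPM in S and 51.8 CPM (47.1 to 56.8) in G2/M. Clusters differ in phase, with 100% of clusters 10 and 4 called S or G2/M and 45.9% of cluster 11, and this was not separated from the phase values. Lef1 was at 52.1, 46.1 and 61.6 CPM in the same 3 phases, Axin2 at 19.2, 20.2 and 24.0 CPM and Nkd1 at 88.1, 88.9 and 95.8 CPM. At E11.5 Lef1 was at 139, 138 and 153 CPM, Axin2 at 34.7, 39.3 and 42.6 CPM, and Nkd1 lowest in G2/M at 69.0, 68.7 and 58.8 CPM. The Lef1 and Axin2 levels of every phase were thus lower at E13.5 than in the same phase at E11.5.

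UMIs of Sp5 were concentrated in few cells. In the E13.5 mesenchyme 538 of 3905 cells were positive, 53 cells had 5 or more UMIs, and the 390 cells with the most held 87.4% of them. In cluster 11, 179 of 279 cells were positive and the top 28 cells held 37.3%. In cluster 10, 41 of 292 cells were positive, the top 29 held 91.9% and the highest cell had 14 UMIs. The clusters with a high Sp5 level therefore differed in how many cells carried it. Single cells reached 20 Lef1 UMIs at E11.5 (cluster 1) and 17 at E13.5 (cluster 2).

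The epithelium, the source and a target of many WNT signals, was compared over 405 cells at E11.5 and 838 at E13.5. Lef1 was at 110 CPM (327 UMIs) and 71.2 CPM (755 UMIs), 1.55-fold lower at E13.5 (1.36 to 1.77). It was the only 1 of the 5 genes called lower, where 14.2% of 11677 measured genes were, and 0 were called higher, where 9.33% were. This call sits at the limit. The ratio, 0.646 as reported, was 0.719 with size factors, 0.669 without the deepest cells of each cluster, 0.806 in cells called G1 and 0.866 with the erythroid UMIs taken off, so it did not hold under 4 of 8 settings. Sp5 had 21.6 CPM in the younger epithelium and 20.4 CPM in the older, and the interval of their ratio, 0.944 (0.711 to 1.27), lies below that of the mesenchymal ratio. In cells called G1 alone, however, epithelial Sp5 was at 28.1 and 14.4 CPM, a ratio of 0.513. Axin2 had a ratio of 1.02 (0.741 to 1.42) and Tcf7 of 1.20 (0.611 to 2.56). Nkd1 was at 17.9 and 13.01 CPM, or 0.131 and 0.165 UMIs per cell, above the erythroid 0.0987 and 0.0531. With the erythroid UMIs taken off, the Nkd1 ratio was 2.006 in place of 0.728 and the Axin2 ratio 2.342 in place of 1.02, so the direction of neither is read.

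Epithelial clusters also differed among themselves. At E13.5 cluster 7 (led by Cxcl14 and Gjb6) had 110 CPM of Lef1 and 26.4 CPM of Axin2. Cluster 9 (led by Dapl1 and Pitx1) had 35.5 and 7.69 CPM, and cluster 16 (led by Krtdap, a gene of differentiating outer layers) had 20.6 and 9.78 CPM. Sp5 was at 20.1 and 24.7 CPM in clusters 7 and 9, not apart, and at 1.09 CPM in cluster 16. So Lef1 and Axin2 set cluster 7 apart from cluster 9 while Sp5 did not. In the thinned E13.5 epithelium 10.8% of Lef1-positive cells had Axin2 (13 of 120; 5.90 to 17.8) against 3.31% of weighted Lef1-negative cells. Sp5 was found in 7.50% of them (9 of 120; 3.49 to 13.8) against 2.42%. At E11.5 only 3 of 75 Lef1-positive epithelial cells had Axin2 and 3 had Sp5, too few to compare. Lef1 in the E13.5 epithelium was highest in G1, at 100 CPM (90.6 to 111), and at 54.7 CPM in both S and G2/M. Sp5 ran the other way, at 14.4, 19.96 and 27.7 CPM. These clusters differ in phase, with 53.8% of cluster 7, 66.0% of cluster 9 and 32.7% of cluster 16 called S or G2/M. This was not separated from the phase values.

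In skeletal muscle cells (151 at E11.5, all in cluster 14, and 752 at E13.5 in 3 clusters) Nkd1 was called higher. Its level was 30.1 CPM in the younger cells and 66.6 CPM in the older, a ratio of 2.21 (1.69 to 2.96). Against the progenitor cluster 1 of E13.5 alone the ratio was 1.641; the E13.5 class also holds the differentiating clusters 15 and 19. It was 1 of 5 genes called higher, where 9.38% of 11428 measured genes were. At E13.5 its level differed along the muscle clusters, with 49.4 CPM in cluster 1 (led by Msc), 77.2 CPM in cluster 15 (led by Vgll2 and Myog) and 143 CPM in cluster 19 (led by Mybph and Tnnc2, genes of contracting muscle). In cluster 19, 73 of 80 cells were positive. No cell of cluster 19 was called S or G2/M, against 96.5% of cluster 1, and the part of phase in this difference was not tested. Lef1 was 1.66-fold lower in muscle at E13.5 (1.28 to 2.12; 42.7 and 25.8 CPM), the 1 gene called lower where 13.7% were, although with size factors its ratio was 0.694, within the limit. With the erythroid UMIs taken off, muscle Lef1 was at 24.94 and 25.03 CPM, a ratio of 1.004, so this call did not hold under that setting. The ratio has no interval, and E11.5 erythroid clusters 11 and 12 differed (0.156 and 0.286 Lef1 UMIs per cell). An unchanged level of muscle Lef1 is therefore not shown. Axin2 (8.21 and 5.80 CPM), Tcf7 (3.29 and 2.73 CPM) and Sp5 (2.19 and 2.80 CPM) were not called.

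In the endothelium (162 and 137 cells) Lef1 was at 32.5 and 15.4 CPM, 2.11-fold lower at E13.5 (1.25 to 3.64). It was the 1 gene called lower, where 13.6% of 8586 measured genes were, and 0 were called higher, where 7.43% were. With the erythroid UMIs taken off, the levels were 8.414 and 14.07 CPM, a ratio of 1.672 without an interval. The E11.5 endothelium held 0.290 Lef1 UMIs per cell, against 0.156 and 0.286 in erythroid clusters 11 and 12. No direction is therefore read for endothelial Lef1. Macrophage markers summed to 889 CPM in the E11.5 endothelial cluster and to 16.1 CPM in the E13.5 one, and their part in the Lef1 difference was not tested. Nkd1 (9.67 and 12.1 CPM) and Axin2 (5.52 and 3.35 CPM) were not above the erythroid UMIs per cell at E11.5. Tcf7 had 2 UMIs at E11.5 and 13 at E13.5, a ratio of 6.30 with a counting interval of 1.43 to 57.5, and Sp5 had 0 and 8 UMIs. Both had under 20 UMIs in all and were not called.

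The closest relatives of Lef1 and Axin2 had other stage ratios in the mesenchyme. Tcf7l2 and Tcf7l1, the other LEF/TCF genes, were 2.57-fold (2.40 to 2.74; 34.9 and 89.5 CPM) and 2.299-fold (2.08 to 2.54; 16.03 and 36.9 CPM) higher at E13.5, while Lef1 was lower. Axin1, the constitutive Axin, was at 11.4 and 11.02 CPM (ratio 0.965), while Axin2 was lower. Nkd2 was at 25.0 and 31.1 CPM, a ratio of 1.25, near that of Nkd1. Of the Sp5 relatives, Sp9 was at 14.7 and 47.8 CPM (3.25-fold higher) and Sp7, the osteoblast factor osterix, at 8.42 and 17.4 CPM (2.06-fold higher). Sp4 was lower, at 6.86 and 3.62 CPM (1.90-fold; 1.53 to 2.37). Sp1, Sp2 and Sp3 were not called, with ratios of 1.27, 0.860 and 0.707. Sp6 had under 20 UMIs in the mesenchyme. In the epithelium, where Sp6 acts in tooth development, it was at 16.8 and 7.82 CPM, 2.15-fold lower (1.49 to 3.10). Epithelial Tcf7l2 (45.8 and 42.4 CPM) and Tcf7l1 (24.6 and 25.5 CPM) were not called.

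The rest of the pathway was read from 4 lists with 81 genes in all, of which 75 were measured in the mesenchyme. There 18 (24.0%) were called higher and 9 lower, beside 27.0% called higher and 12.2% lower of all measured genes. Their median log2 ratio was 0.16, beside 0.14 over all genes. With size factors the split was 17 higher and 13 lower. The receptor list had the highest median log2 ratio, 0.40, with 8 of 21 measured genes (38.1%) called higher and 2 (9.52%) lower, beside 27.0% and 12.2% of all genes. Fzd8, a Frizzled receptor, was at 1.10 and 6.06 CPM (5.52-fold higher), and Lgr6, an R-spondin receptor, at 0.107 CPM from 4 UMIs and 3.21 CPM (29.9-fold; 11.4 to 112). Fzd1 was 1.85-fold lower, and Znrf3, a ligase that removes Frizzled from the membrane and is itself a target, was 3.02-fold lower (10.5 and 3.47 CPM).

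Of 18 other target genes measured in the mesenchyme, 5 (27.8%) were called higher and 6 (33.3%) lower, beside 27.0% and 12.2% of all genes. The median of their log2 ratios was −0.11. Fst, an activin and BMP antagonist, was 3.65-fold higher (12.3 and 44.8 CPM) and the Notch ligand Jag1 3.57-fold higher (4.24 and 15.1 CPM). Msx2, a homeobox gene that also answers to BMP, was 4.52-fold lower (71.7 and 15.9 CPM). Among 19 coactivators and corepressors 3 (15.8%) were higher and 1 (5.26%) lower, the last being the Groucho-type corepressor Tle3 (1.94-fold lower; 33.8 and 17.4 CPM). Bcl9l, a coactivator that tethers Pygopus to β-catenin, was at 19.2 and 14.1 CPM and was not called. The counts were the same among 19 cytoplasmic components. Dact2, a Dishevelled-binding protein, was 3.82-fold higher (0.831 and 3.18 CPM). Its relative Dact3 was at 21.6 and 15.3 CPM and was not called. Apc2 was 1.78-fold higher (2.09 and 3.73 CPM) and the casein kinase gene Csnk1e 1.76-fold lower (78.6 and 44.6 CPM).

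**Figure D5:**
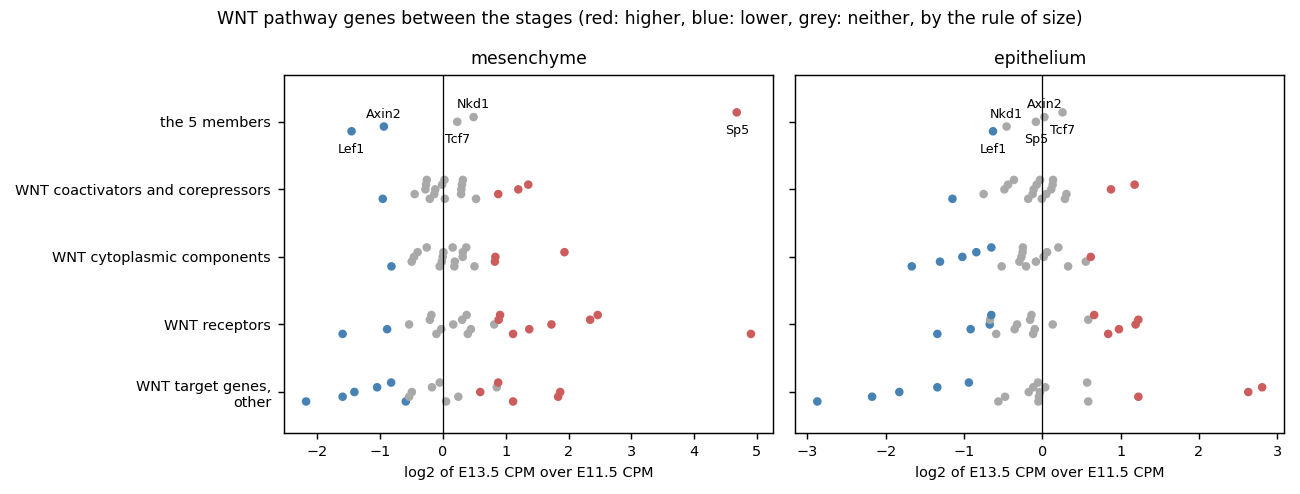
Log2 of E13.5 CPM over E11.5 CPM for each measured gene (1 point per gene) of the 5 members and of 4 lists of other WNT pathway genes, in mesenchyme (left) and epithelium (right); red and blue points are higher and lower by the rule of size, grey points neither. Sp5 lies at 4.68 in the mesenchyme, apart from most points, while the receptor list there has more red (8) than blue (2) points.

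In the epithelium 72 of the 81 genes were measured, of which 10 (13.9%) were called higher and 14 (19.4%) lower, beside 9.33% and 14.2% of all genes. The median of their log2 ratios was −0.12, beside −0.10 over all genes. With size factors the split was 11 higher and 10 lower. Dkk4, a secreted WNT inhibitor and placode target gene, was 6.99-fold higher (3.74 to 14.8; 3.37 and 23.6 CPM) and Fst 6.18-fold higher (12.5 and 77.1 CPM). Msx1 and Msx2 were 7.33-fold (205 and 28.0 CPM) and 3.55-fold (91.0 and 25.6 CPM) lower. Of the receptor-level genes the ligase Rnf43 was 2.34-fold higher (4.72 and 11.03 CPM) and its partner Znrf3 2.53-fold lower (37.7 and 14.9 CPM), so the genes of this pair of ligases were called in opposite directions. The WNT receptor Ryk was 2.28-fold higher (38.8 and 88.4 CPM) and the WNT receptor Ror2 1.89-fold lower (6.40 and 3.39 CPM). Among the coactivators and corepressors Pygo2 was 2.26-fold higher (7.75 and 17.5 CPM) and Tle4 2.22-fold lower (27.0 and 12.2 CPM). Tle1, a relative of Tle4, was at 28.0 and 19.98 CPM and was not called. Of the 18 cytoplasmic genes 1 (5.56%) was higher, Apc of the destruction complex (1.53-fold; 21.6 and 33.1 CPM), and Dvl1 was at 2.70 and 3.96 CPM without a call. The 5 called lower (27.8%) include Btrc, the β-catenin ubiquitin ligase subunit, 2.03-fold lower (49.2 and 24.2 CPM), and Csnk1e, 1.79-fold lower (86.9 and 48.5 CPM).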

How the data were processed

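Single cells of 2 libraries were captured on the 10x Chromium platform, per the labels' protocols. The authors deposited a table of raw UMI counts per gene and cell for each library, made with Cell Ranger 2.0.0 and Seurat 2.3.4 among the tools and mm10 as genome build, per the submitters' processing notes. How cells were filtered, which annotation was used and whether doublets were removed is not stated in the labels. The deposited metadata give the mitochondrial share as a fraction and cell cycle scores with a phase call. The scores were not used beyond that call. The shallowest cells had 2253 (E11.5) and 500 (E13.5) UMIs, and mitochondrial shares reached 7.90% and 19.98%. The libraries shared 71 barcodes, doublets were kept, and summed depth was 49913485 and 67838169 UMIs.

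Counts were summed over the cells of a cluster or class and divided by their total (CPM), with exact Poisson intervals. Ratios have exact conditional binomial intervals and shares have Clopper-Pearson intervals, all at 95%. Classes followed the authors' lineage names, except for 3 clusters placed by markers. Shares and pairs used cells thinned to 2000 UMIs. Clusters under 50 cells, such as the 26 glial cells at E11.5, were left out of orders and likeness. The 5 members and their relatives are named throughout, as are, from each list, the 2 highest and 2 lowest ratios with at least 50 UMIs and the 3 genes most like each member with a pseudocount of 5 CPM. A few genes that this rule names are not reported here. The members and lists were chosen with earlier results of these data known. Alternatives were size factors, totals without haemoglobin, mean CPM of cells, equal cell limits, no deepest 5% of cells, G1 cells, no skeletogenic clusters, cells with no Xist UMI, other UMI minimums and other thinning. Leaving out each mesenchyme cluster or E13.5 cluster 21, taking off erythroid UMIs per cell and E13.5 muscle cluster 1 alone were chosen after seeing the data. The calling step was tested on simulated counts with Poisson error only, so that test does not cover differences between libraries, cells or free RNA. Python 3.11.15, numpy 2.4.6, scipy 1.17.1 and pandas 2.3.3 were used.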

Additional observations from a re-analysis of the deposited data

How the results depend on the processing

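In the mesenchyme the Lef1 and Axin2 ratios stayed past 1.5-fold in the reported direction under all 10 alternative settings, and Sp5 under the 9 that gave a ratio. All 3 did so with each of 22 clusters left out. For Axin2 the ratio with the erythroid UMIs taken off (0.6635) was at the very edge of the limit and has no interval. The Axin2 call is therefore not settled under that setting. With the erythroid UMIs per cell taken off, and with no interval, the mesenchymal log2 ratios were −1.11 for Lef1, −0.59 for Axin2 and 0.79 for Nkd1. Under the same setting Lef1 was at 0.0053 in muscle and 0.74 in the endothelium, from which no direction is read. Mesenchymal Sp5 then had no E11.5 level left. On the log2 scale Lef1 was at −1.55 with size factors (−1.45 as reported), Nkd1 at 0.40 with size factors and 0.35 in G1 cells (0.49 as reported), and Sp5 at 3.70 in G1 cells (4.68 as reported). Tcf7, which was not called, was at −0.56 without the skeletogenic clusters of both stages (0.23 as reported). The cause was not tested. With 1 cluster left out at a time the log2 ratios ranged from −1.86 to −1.05 for Lef1, −1.24 to −0.69 for Axin2, −0.50 to 0.39 for Tcf7, 0.083 to 0.77 for Nkd1 and 4.22 to 5.13 for Sp5. Size factors moved the log2 ratios by −0.09 in the mesenchyme, 0.16 in the epithelium, 0.20 in muscle and 0.12 in the endothelium. Counts of other pathway genes stayed within 1.5 times under every setting run for them. Taking off the erythroid UMIs was not among those settings. Shares of positive cells moved past their intervals in 35 of 40 recomputations with other thinning, since they follow depth. No paired analysis was possible because there was 1 library per stage. Depth limits Tcf7 in every class and Sp5 at E11.5, where counting intervals are wide.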
